A study of Mus musculus with 3 samples.

Results

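The semaphorins, with their plexin and neuropilin receptors, were examined in dorsal cortex taken from mouse pups on postnatal day 4. The 31 genes of the family (20 semaphorins, 9 plexins and 2 neuropilins) were selected by gene symbol from 35468 genes and unnamed transcripts with a probe on the array, of which 23232 passed a filter on dim signal and were tested. They were represented by 44 probes, of which 43 passed that filter, and all 31 genes could be tested. No threshold on a value chose the genes, but 4 of the probes, among them the one reported for Sema3g, took their symbol from the authors' deposited table, which lists spots by outcome. The study set Brpf1-deficient pups, labelled with Cy5, against wild-type pups, labelled with Cy3, on 3 Agilent arrays with 1 pup of each genotype per array. Brpf1 encodes a scaffold of histone acetyltransferase complexes. The pups received no treatment. How Brpf1 was removed, in which cells, and whether the 3 pairs came from different litters is not stated in the labels, so the p-values below measure only the spread between these 3 arrays, which may in part be technical. No array had the dyes exchanged, so dye and genotype cannot be told apart.

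Semaphorins are secreted or membrane-bound guidance proteins that share a sema domain. Class 3 members are secreted and in most cases bind a neuropilin, which holds the ligand, in a complex with a plexin, which carries the signal into the cell. Classes 4 to 6 span the membrane, class 7 is held by a lipid anchor, and these classes bind plexins directly. In the developing cortex the family is known for steering callosal, corticofugal and thalamocortical axons, for orienting migrating neurons and dendrites, and for shaping synapses and blood vessels.

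Sema7a, Plxnc1 and Sema3c were the members whose differences were kept under every processing tried, and the 250 bases upstream of their annotated starts are shown because Sema7a is a ligand of the plexin encoded by Plxnc1. The sequences are from RefSeq, build GRCm38.p6, matched by symbol, and run 5′ to 3′ on the strand of the gene. They cover chr9:57939862-57940111 on the + strand for Sema7a, chr10:94944846-94945095 on the - strand for Plxnc1 and chr5:17574566-17574815 on the + strand for Sema3c. Capitals mark the GC box GGGCGG on either strand.
Sema7a: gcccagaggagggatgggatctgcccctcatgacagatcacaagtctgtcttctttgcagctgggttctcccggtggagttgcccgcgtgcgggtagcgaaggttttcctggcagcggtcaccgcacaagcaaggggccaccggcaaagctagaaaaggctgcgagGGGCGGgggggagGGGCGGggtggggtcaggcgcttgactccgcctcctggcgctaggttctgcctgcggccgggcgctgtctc
Plxnc1: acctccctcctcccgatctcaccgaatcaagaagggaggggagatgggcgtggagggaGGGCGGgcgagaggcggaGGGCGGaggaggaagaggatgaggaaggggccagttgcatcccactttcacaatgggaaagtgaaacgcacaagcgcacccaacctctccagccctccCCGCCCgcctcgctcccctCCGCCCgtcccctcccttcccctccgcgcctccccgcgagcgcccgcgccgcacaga
Sema3c: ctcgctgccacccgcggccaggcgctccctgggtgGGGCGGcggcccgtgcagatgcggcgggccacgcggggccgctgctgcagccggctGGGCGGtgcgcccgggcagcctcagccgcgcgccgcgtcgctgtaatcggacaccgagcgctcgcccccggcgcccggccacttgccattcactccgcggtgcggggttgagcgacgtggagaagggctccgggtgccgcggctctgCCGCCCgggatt
The GC box occurred 2 times upstream of Sema7a, 4 times upstream of Plxnc1 and 3 times upstream of Sema3c, and 32.7% of all 32851 windows of this length held at least 1. The TATA box TATAAA, also searched on both strands, had no match in the 3 windows and was held by 12.4% of all windows. The CCAAT box had no match either (33.8% of all windows). The same was true of the E-box CACGTG (6.0% of all windows). No 2 matches overlapped. The windows were 66.4%, 68.8% and 78.4% G or C for Sema7a, Plxnc1 and Sema3c, where the median of all windows was 52.4%, and held 17, 22 and 39 CpG sites, where the median was 6.

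The values are log2 ratios of Cy5 over Cy3, so that a positive ratio means brighter in the channel labelled Brpf1-deficient and a negative one brighter in the channel labelled wild type. Brpf1 itself went against that label: its single probe had log2 ratios of 0.62, 0.73 and 0.96 on the 3 arrays. The position of this probe relative to the removed sequence is unknown, so it may be no check of the labels. In the authors' deposited table all 37 listed member probes, and Brpf1, have the opposite sign, and the direction of that table's ratio is not stated. Each direction below is therefore that of the channel as labelled, and which genotype it belongs to is not settled. Array 1 stood apart in Emx1, a cortical homeobox gene named here after its values were seen: its log2 ratios were 0.65, -2.72 and -2.65, and it was above background on 2 arrays in Cy5 and on 3 in Cy3. Whether array 1 compared the same 2 genotypes as arrays 2 and 3 was not tested, and every mean and SD over the 3 arrays carries that limit. Without array 1 the log2 ratio was 0.61 for Sema7a, -0.61 for Plxnc1 and -0.62 for Sema3c, each still called (limma adjusted p = 0.00849, 0.0100 and 0.00885), while the 4 other genes called below were not. The median signal was 271 to 307 in Cy5 and 151 to 187.5 in Cy3, and 57.9% to 58.2% of spots were well above background in Cy5 and 59.9% to 61.0% in Cy3. The brightest probe of each of the 31 genes, which stands for the gene below, was well above background in both channels on all 3 arrays.

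A gene is called below when its limma p, adjusted over all genes by Benjamini-Hochberg, is under 0.05. By this rule 7 of the 31 genes (22.6%) were called, where 17.1% of all genes tested were. Brighter in Cy5 were 2 (7.97% of all genes), Sema7a and Plxnd1, and brighter in Cy3 were 5 (9.16% of all genes), Plxnc1, Sema3c, Nrp1, Plxna2 and Sema4d. The differences were small, with mean log2 ratios over the 3 arrays between -0.75 and 0.59. No mean reached a 2-fold difference, although Sema3c had a log2 ratio of -1.02 on array 1. The family as a whole leaned neither way: 14 ratios lay above 0 and 17 below, with a median of -0.06, against -0.01 over all genes. At an unadjusted p under 0.05, 58.1% of the members passed, and 36.8% of all genes did.

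**Figure D1:**
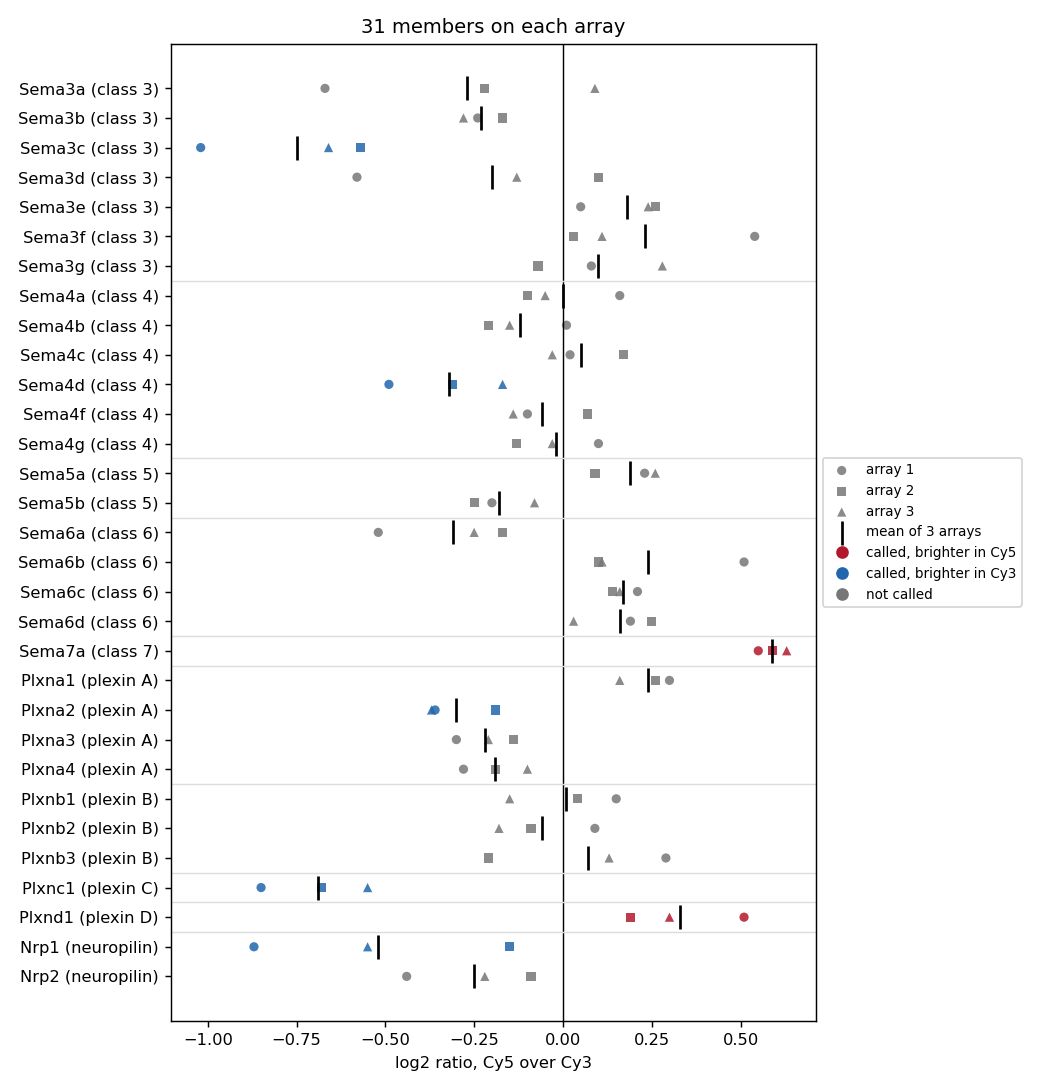
Log2 ratio of Cy5 (labelled Brpf1-deficient) over Cy3 (labelled wild type) for the 31 genes, 1 row per gene grouped by class, with 1 symbol per array and a bar at the mean of the 3. Coloured genes passed the limma test; Sema3c at -0.75 and Sema7a at 0.59 were the lowest and the highest means.

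The ligand Sema7a and its receptor Plxnc1 differed in opposite directions. Sema7a encodes a membrane-anchored semaphorin that promotes axon growth through integrins and also binds plexin C1. Its normalized intensity was 8684, 11351 and 10719 in Cy5 on arrays 1 to 3, against 5932, 7563 and 6919 in Cy3. Every Cy5 value exceeded every Cy3 value, and the log2 ratio hardly varied between arrays, at 0.55, 0.59 and 0.63. With a mean of 0.59 ± 0.04 (SD, n = 3 arrays), or 1.50-fold, it had the lowest limma adjusted p of the family (0.00497).

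Plxnc1, the single plexin of the C type, stood at 7582, 8761 and 8527 in Cy5 and at 13669.5, 14002 and 12449.8 in Cy3. The channels did not overlap here either, with all Cy3 values above all Cy5 values. The log2 ratio was -0.69 ± 0.15 (SD, n = 3 arrays), 1.61-fold, with a limma adjusted p of 0.00536. A second Plxnc1 probe was called as well, at -0.48 ± 0.34 (adjusted p over all probes 0.0392). Sema7a was brighter in Cy5 and Plxnc1 in Cy3 on each array. The difference between their log2 ratios (1.40, 1.26 and 1.18) therefore had a fixed sign and adds no evidence beyond the ratios themselves. The integrin subunit gene Itgb1, whose product also binds Sema7a, had 0.08 ± 0.08 and was not called (limma adjusted p = 0.439); it was picked from the pathway list for its role, with its values known. In these bulk samples, fewer cells of a type and less RNA per cell cannot be told apart.

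**Figure D2:**
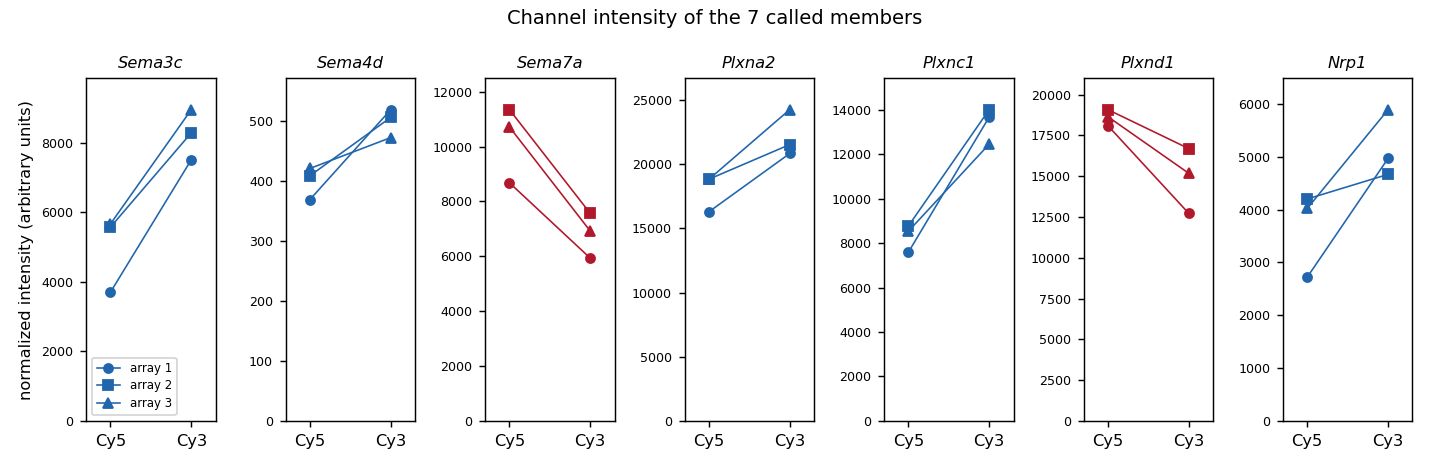
Normalized intensity of the reported probe of the 7 called genes in Cy5 (labelled Brpf1-deficient, left) and Cy3 (labelled wild type, right), with a line joining the 2 channels of an array. The vertical axes start at 0 and differ between genes; in all 7 panels the 3 values of one channel lie clear of the 3 of the other.

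Among the secreted class 3 ligands, 1 of 7 was called, and it had the lowest ratio of the family. Sema3c, which is known to attract callosal axons through Nrp1, had a normalized intensity of 3701, 5572 and 5665 in Cy5, against 7515, 8289 and 8955 in Cy3. All Cy5 values lay below all Cy3 values, and array 1 was the most extreme, with log2 ratios of -1.02, -0.57 and -0.66. They averaged -0.75 ± 0.24 (SD, n = 3 arrays), or 1.68-fold (limma adjusted p = 0.00758). Its second probe was not called, at -0.45 ± 0.49 (adjusted p over all probes 0.0929), and on array 2 that probe had a ratio of 0.01.

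The other class 3 genes were not called. Sema3b, which binds neuropilins, had -0.23 ± 0.05 (SD, n = 3 arrays) with no overlap between channels, at 602.2, 610.4 and 613.7 in Cy5 and 709.2, 687.4 and 744.1 in Cy3, and narrowly missed the threshold (limma adjusted p = 0.0587). Sema3a, the repellent that signals through Nrp1 and plexin A, had log2 ratios of -0.67, -0.22 and 0.09, so the arrays differed in sign. Sema3d also changed sign between arrays (-0.58, 0.10 and -0.13). Sema3f, a repellent that binds Nrp2, had 0.54 on array 1 but 0.03 and 0.11 on the others. Sema3e, which binds plexin D1 without a neuropilin, had 0.18 ± 0.11 (95% interval 0.01 to 0.36), and Sema3g, a semaphorin of blood vessels, 0.10 ± 0.18 (95% interval -0.10 to 0.30). Over the 7 class 3 genes the median was -0.20.

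Both neuropilins, the binding subunits for class 3 ligands, had ratios below 0, although Nrp2 stood at 0.01 with median centring. Nrp1, the receptor subunit for Sema3a and for a vascular growth factor, was 2721, 4201 and 4022 in Cy5, against 4972, 4668 and 5894 in Cy3. The channels did not overlap, but array 2 had the smallest difference: the log2 ratios were -0.87, -0.15 and -0.55. The mean was -0.52 ± 0.36 (SD, n = 3 arrays; limma adjusted p = 0.0364). The call was lost without array 1 (-0.35, limma adjusted p = 0.0791) and without array 3 (-0.51, limma adjusted p = 0.0688). Nrp2, the subunit that prefers Sema3f, had -0.25 ± 0.18 and was not called (limma adjusted p = 0.0854), while its second probe was, at -0.31 ± 0.09 (adjusted p over all probes 0.0320).

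Plxnd1, the receptor for Sema3e in vessels and in axon tracts, was the other member brighter in Cy5. Its normalized intensity was 18098, 19077 and 18644 in Cy5 and 12721, 16687 and 15174 in Cy3. No values overlapped, and the log2 ratios were 0.51, 0.19 and 0.30. The mean of 0.33 ± 0.16 (SD, n = 3 arrays) had a limma adjusted p of 0.0374, and a second probe was also called at 0.49 ± 0.21 (adjusted p over all probes 0.0189). Without array 1 the ratio was 0.25 and without array 3 it was 0.35, and neither was called (limma adjusted p = 0.0630 and 0.0962). With median centring it was 0.56 (limma adjusted p = 0.00507).

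Endothelial cells express Plxnd1 and Nrp1, so endothelial markers were set beside these results. By their brightest probes, 2 of 10 markers were brighter in Cy5 and 8 were not called. The ratios of these probes lay between -0.06 and 0.30, with a median of 0.11. A second probe had 0.45 for Kdr and 0.13 for Flt1. The called markers were Cldn5, of tight junctions, at 0.30 ± 0.14, and the receptor Tie1 at 0.28 ± 0.13 (SD, n = 3 arrays; limma adjusted p = 0.0418 and 0.0478). The summed normalized intensity of the 10 markers was 64298 to 70446 in Cy5 and 57457 to 58875 in Cy3, and all 10 were well above background in both channels on every array. The part of endothelial cells in the ratios of Plxnd1 and Nrp1 was not tested.

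The plexins of the A type carry the signal of class 3 and class 6 ligands, and 1 of 4 was called. Plxna2, a receptor for Sema6a and a partner of neuropilins, had a normalized intensity of 16285, 18826 and 18816 in Cy5, against 20831, 21526 and 24252 in Cy3. The channels did not overlap, and the log2 ratios were -0.36, -0.19 and -0.37, with a mean of -0.30 ± 0.10 (SD, n = 3 arrays; limma adjusted p = 0.0341). This call depended on the scaling: the ratio was -0.05 (limma adjusted p = 0.717) when each array was centred on its median instead of by loess. It was also lost without array 1 (-0.28) and without array 3 (-0.27). Plxna3, a receptor for Sema3f, had -0.22 ± 0.08 and Plxna4, a receptor for Sema3a and Sema6a, -0.19 ± 0.09, and neither was called (limma adjusted p = 0.0736 and 0.102; -0.10 and -0.04 with median centring). In contrast, Plxna1, a receptor for Sema3a and Sema6d, lay above 0 on all 3 arrays at 0.24 ± 0.07 and just missed the threshold (limma adjusted p = 0.0539).

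By limma none of the 4 class 6 ligands was called by its brightest probe. Of the 4, 3 had an unadjusted limma p under 0.05, as did 36.8% of all genes. Sema6a, a membrane ligand of plexins A2 and A4, had a normalized intensity of 12279, 15191 and 14219 in Cy5 and 17617, 17046 and 16875 in Cy3. All Cy5 values lay below all Cy3 values, yet the mean log2 ratio of -0.31 ± 0.19 (SD, n = 3 arrays) fell just outside the threshold (limma adjusted p = 0.0504). It was called under 5 of the 13 other settings (-0.38 to -0.31, limma adjusted p = 0.0272 to 0.0474) but had -0.10 with median centring (limma adjusted p = 0.555). Its second probe was called at -0.44 ± 0.17 (adjusted p over all probes 0.0192). Sema6b, a ligand of plexin A4, had 0.24 ± 0.24, with 0.51 on array 1 and 0.10 and 0.11 on the others. Sema6c had 0.17 ± 0.04 and Sema6d, the ligand of plexin A1, 0.16 ± 0.11, both above 0 on every array and not called. The median of class 6 was 0.16. The 2 class 5 ligands, membrane proteins with thrombospondin repeats, had 0.19 ± 0.09 (Sema5a) and -0.18 ± 0.09 (Sema5b) and were not called (limma adjusted p = 0.0990 and 0.122).

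Class 4, transmembrane ligands mostly of the B-type plexins, held 1 called gene in 6. Sema4d, which binds plexin B1 and is known for promoting inhibitory synapses, was a dim probe at 368.6, 408.3 and 420.4 in Cy5 and 518.5, 505.6 and 471.9 in Cy3. The channels did not overlap, and the log2 ratios were -0.49, -0.31 and -0.17. The mean was -0.32 ± 0.16 (SD, n = 3 arrays; limma adjusted p = 0.0411), and the call did not survive leaving out any single array (-0.24, -0.33 and -0.40 without arrays 1, 2 and 3). Since oligodendrocytes express Sema4d, their lineage markers were examined, and 0 of 10 were called by limma, with ratios between -0.03 and 0.29. At an unadjusted limma p under 0.05 there were 2, where 36.8% of all genes passed. All 10 were well above background, and their sum was 41426 to 47719 in Cy5 and 38804 to 44325 in Cy3. Their part in the ratio of Sema4d was not tested.

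The remaining class 4 genes and the B-type plexins had ratios between -0.12 and 0.07. By limma none of these 8 was called, and 0 had an unadjusted p under 0.05, where 36.8% of all genes did. Sema4a had 0.00 (95% interval -0.18 to 0.19), Sema4b -0.12 (-0.29 to 0.06), Sema4c, the ligand of plexin B2, 0.05 (-0.12 to 0.23), Sema4f -0.06 (-0.23 to 0.12) and Sema4g -0.02 (-0.19 to 0.16). Among the receptors, Plxnb1 had 0.01 (-0.18 to 0.20), Plxnb2 -0.06 (-0.24 to 0.12) and Plxnb3, a receptor for Sema5a, 0.07 (-0.17 to 0.31). All 8 intervals include 0, and their limma adjusted p lay between 0.296 (Sema4b) and 0.975 (Sema4a). With median centring Sema4c had 0.37 and was called (limma adjusted p = 0.0258), and Sema4f, Sema4g and Plxnb2 lay above 0.

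In 16 of the 31 genes (51.6%) the 3 values of one channel lay clear of the 3 of the other, as they did in 36.2% of all genes tested. These were the 7 called genes and 9 others, among them Sema3b, Sema6a, Plxna3 and Nrp2.

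A further reading came from the 11 genes with more than 1 measured probe. In 9 of them all probes had the same sign. Of the 12 other probes, 6 were called, where 16.8% of all probes were: those of Sema3a, Sema6c and Plxnd1 brighter in Cy5, and those of Sema6a, Plxnc1 and Nrp2 brighter in Cy3. Sema3a was the widest disagreement, since its brighter probe had -0.27 ± 0.38 and its dimmer probe 0.33 ± 0.21 (SD, n = 3 arrays; adjusted p over all probes 0.185 and 0.0488). Both probes carry the accession of the same transcript. The 3 probes of Sema5b also split, at -0.18, 0.16 and 0.14, and none was called. For Sema6c the second probe had 0.39 ± 0.22 (adjusted p over all probes 0.0338), against 0.17 for the brighter one.

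**Figure D3:**
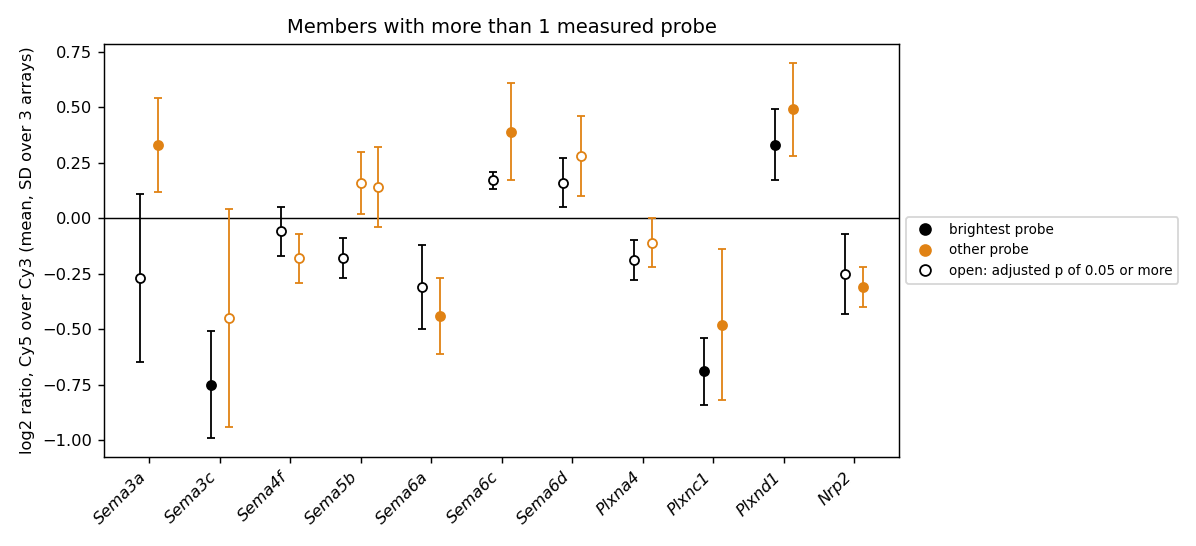
Mean log2 ratio of Cy5 (labelled Brpf1-deficient) over Cy3 (labelled wild type), with the SD over 3 arrays, for every measured probe of the 11 genes with more than 1; filled symbols passed the limma test over all probes. The probes of Sema3a (-0.27 and 0.33) and Sema5b (-0.18 and 0.16) lie on opposite sides of 0.

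Array 1 held the ratio farthest from 0 in 18 of the 31 genes (58.1%), the same share as over all genes (58.1%). The SD of the ratio over all genes was 0.37 on array 1, 0.25 on array 2 and 0.26 on array 3. The median over 11 markers of the striatum, which lies below the cortex, followed the order array 1, array 3, array 2. It was 1.11, 0.21 and 0.75 on arrays 1 to 3. Not every marker had that order: Pde10a had 0.06, 0.08 and 0.13. By limma 7 of these markers were called, each brighter in Cy5, among them the peptide gene Penk at 1.08 ± 0.56 and Ebf1 at 0.60 ± 0.24 (SD, n = 3 arrays). The 4 others were not called, and the mean ratios of the 11 ranged from 0.09 to 1.19. The summed intensity of the 11 markers was 86701 to 96088 in Cy5 and 36149 to 73826 in Cy3, and all were above background.

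Of the called members, Sema3c, Plxnd1 and Nrp1 had their largest ratio on array 1 and their smallest on array 2 in size. The striatal median had that order too, but towards Cy5, whereas Sema3c and Nrp1 were brighter in Cy3. Of the members not called, Sema3d, Sema3f, Sema6a, Sema6b, Sema6c, Plxna3 and Nrp2 had the same order in size. The share of all genes in that order was not counted, but 58.1% of all genes had the ratio farthest from 0 on array 1. By their brightest probes, Sema7a (0.55, 0.59 and 0.63), Plxnc1 (-0.85, -0.68 and -0.55), Sema4d and Plxna2 (-0.36, -0.19 and -0.37) did not follow that order. The second probes of Plxnc1 (-0.87, -0.22 and -0.36) and Sema3c (-0.97, 0.01 and -0.38) did, and that of Plxnd1 (0.71, 0.45 and 0.30) did not. On array 2, where the striatal median was lowest, the brightest probes of Sema7a, Plxnc1 and Sema3c had 0.59, -0.68 and -0.57. There the second probes of Plxnc1 and Sema3c had -0.22 and 0.01. The part of striatal tissue in the ratios of the members was not tested.

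**Figure D4:**
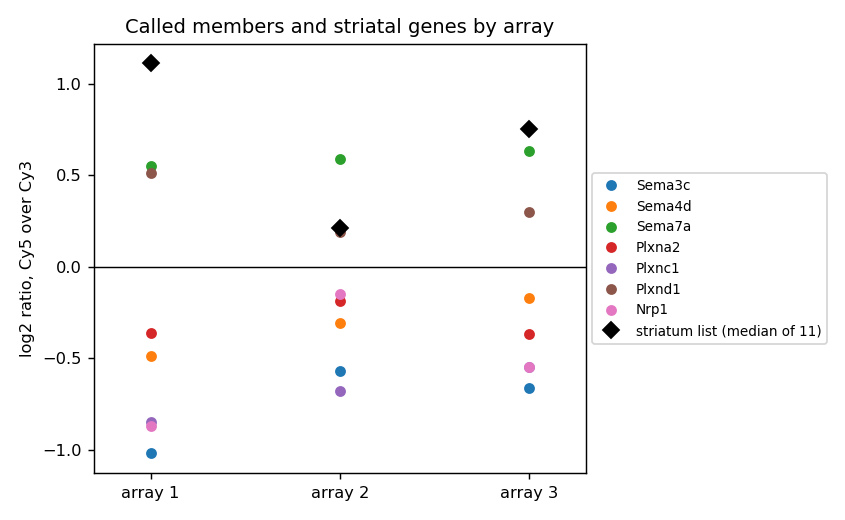
Log2 ratio of Cy5 (labelled Brpf1-deficient) over Cy3 (labelled wild type) on each array for the 7 called genes (circles), with the median of 11 striatal markers (diamonds). The striatal median was 1.11, 0.21 and 0.75, while Sema7a stayed between 0.55 and 0.63.

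The tissue was checked with 10 markers of cortical excitatory neurons, of which 9 were well above background in both channels on all arrays. The exception was Emx1. The list held 3 called genes brighter in Cy5 (among them Bcl11b at 0.39 and Slc17a7 at 0.36) and 2 brighter in Cy3 (Neurod6 at -0.38 and Cux2 at -0.27), with a median of 0.07 and summed intensities of 149637 to 153125 in Cy5 and 144744 to 159234 in Cy3. Of 10 meningeal markers 0 were called by limma and 3 had an unadjusted p under 0.05, where 36.8% of all genes did. The meningeal ratios were -0.33 to 0.07, with sums of 77581 to 85169 in Cy5 and 85641 to 90613 in Cy3. Of 10 microglial markers 2 were brighter in Cy5, C1qb at 0.36 and C1qa at 0.32, with a median of 0.09 over the list (ratios -0.29 to 0.36, sums 73919 to 84315 in Cy5 and 78478 to 85627 in Cy3).

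Genes that act with or below the receptors went both ways. Of 51 such genes 49 could be tested, and 5 were brighter in Cy5, 4 in Cy3 and 40 not called, so that 18.4% were called, close to the 17.1% of all genes. Their median was 0.06, and 19 of the 49 had an unadjusted limma p under 0.05, where 36.8% of all genes did. Dpysl3, of the collapsin response mediator family, had 0.62 ± 0.05 (SD, n = 3 arrays; limma adjusted p = 0.00442), but its second probe had -0.27. Cfl1, the actin-severing cofilin, had 0.26 ± 0.06, and the kinase gene Fes, which phosphorylates proteins of the Dpysl family, 0.25 ± 0.05. Their other probes had 0.08 and 0.20 for Cfl1 and 0.16 for Fes.

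Rras, which plexins inactivate, had 0.32 ± 0.12 and Rnd2, a small GTPase of migrating neurons, 0.26 ± 0.07, both brighter in Cy5. Brighter in Cy3 was Rock1, a kinase that acts on the actin cytoskeleton, at -0.38 ± 0.14. So were the exchange factors Farp1 at -0.33 ± 0.07 and Arhgef12 at -0.30 ± 0.08. Second probes had 0.39 for Rnd2, -0.33 for Rock1 and -0.12 for Farp1. Chl1, an adhesion molecule that associates with Nrp1, had -0.51 ± 0.14 (SD, n = 3 arrays; limma adjusted p = 0.0121), and its second probe had -0.61. Its 3 array values were -0.63, -0.36 and -0.53. The count of these called genes changed with the processing: it was 1 with the scanner software's processed signals, 16 with median centring, and 5 and 2 without arrays 1 and 3.

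Sema7a, Plxnc1 and Sema3c were called under all 13 other processings in which each gene had 1 value. In these 13 the ratios ranged from 0.57 to 0.72 for Sema7a, from -0.76 to -0.53 for Plxnc1 and from -0.84 to -0.60 for Sema3c. When every probe was tested on its own, their brightest probes were called, but the second probe of Sema3c was not (limma adjusted p over all probes 0.0929). Nrp1, Plxnd1, Sema4d and Plxna2 kept their sign throughout but lost the call in 4, 3, 5 and 5 of the 13. Without array 1 or without array 3, the called members were Sema7a in Cy5 and Plxnc1 and Sema3c in Cy3. With median centring, which gave 83.4% of all calls brighter in Cy5, against 46.5% in the main setting, and a median of 0.09 over all genes, Sema4c, Sema5a, Sema6b, Sema6c and Plxna1 were also called brighter in Cy5. The authors' deposited table holds no adjusted p below 0.159, and there Sema7a has -0.60, Plxnc1 0.70 and Sema3c 0.76 (each with an adjusted p of 0.240).

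**Figure D5:**
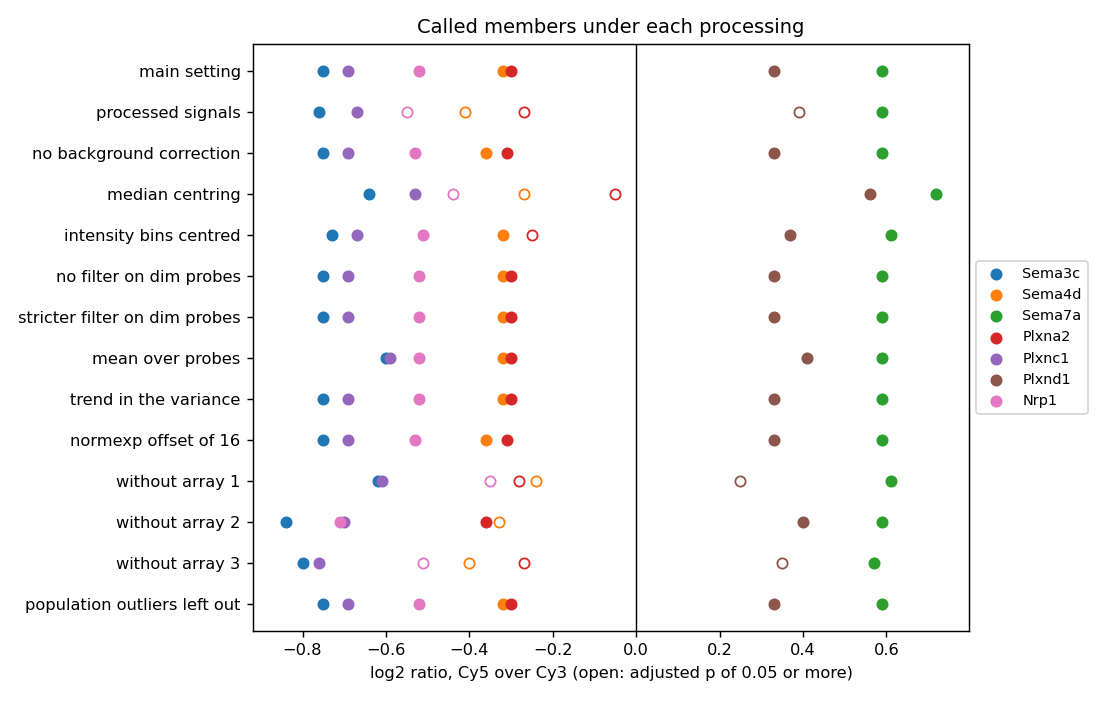
Log2 ratio of Cy5 (labelled Brpf1-deficient) over Cy3 (labelled wild type) of the 7 called genes under the main setting and 13 others, with open circles where the limma adjusted p was 0.05 or more. Sema3c, Plxnc1 and Sema7a are filled in every row, and no gene crosses 0.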

How the data were processed

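The deposited scanner files, made with Agilent Feature Extraction on an mm9 grid per the file headers, hold Cy5 and Cy3 intensity per spot. The medians of spot and local background were used, and the processed intensity (background-subtracted and dye-normalized, per the file headers) in 1 alternative. The log10 ratio deposited beside them went unused. The authors' deposited table gives each listed spot a log2 fold change, an average log2 value, 2 scores (t and log-odds) and a p-value with its adjusted form. The submitters' processing notes name limma. How that table was normalized and which way its ratio runs is not given in the sources used here.

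With limma 3.58.1 (R 4.3.3), normexp with an offset of 50 corrected the background and loess, with control spots at weight 0, normalized each array. Non-uniform outlier spots (4 to 6 per array) were dropped, no spot was saturated, and replicate spots were averaged. Of 55681 probes, 32983 passed the filter: well above background in Cy5 or Cy3 on 2 or more arrays. Each gene, represented by its brightest probe, was tested against a ratio of 0 in an intercept-only limma fit with moderated variances, two-sided. Other probes come from the same fit over all probes. Channel intensities are values after loess and Aquantile. Amplification started from 350 ng of RNA, per the labels. All arrays share 1 slide and 1 scan, so neither can be fitted as a batch. With 3 arrays, their number limits the precision.

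Probes were named by RefSeq accession (27656) through a gene table of GRCm38.p6 or else by the authors' table (4082, 4 of them member probes), which lists probes by outcome; 23943 kept a systematic name. Members, gene lists and tests were chosen with earlier results of these data known. All members are named. Of the pathway list and the marker lists (cortical neurons, striatum, oligodendrocytes, endothelium, meninges and microglia), up to 12 and 4 called genes are. The fit was tested on simulated data. Alternatives were the processed signals, no background correction, median centring, centring of 20 intensity bins, no filter, a stricter filter (both channels, all arrays), the mean over probes, every probe, a variance trend, an offset of 16, leaving out each array, and, added later, leaving out population outliers.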

Additional observations from a re-analysis of the deposited data

How the results depend on the processing

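Of 403 alternative values for the 31 genes, 372 kept their side of the threshold, 17 lost a call and 14 gained one. Among these values no ratio called in either fit changed sign, while some uncalled ones did, such as Sema4g at -0.02 (0.04 with median centring). The fit of every probe is not among them. There the second probe of Sema3a was called at 0.33, while its brightest probe had -0.27 and was not called. With the scanner software's processed signals, 1108 of all genes were called (3981 in the main setting), 1 member was brighter in Cy5 and 2 in Cy3, 1 pathway gene was called, and 0 of the 12 other probes of members were (6 in the main setting). By limma at an unadjusted p under 0.05, those signals gave 8 of the 12. With median centring, 7 members were brighter in Cy5, 2 in Cy3, and 16 pathway genes were called (9 in the main setting). With the mean over probes 5 pathway genes were called, and with every probe tested 4 members were brighter in Cy5.

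Leaving out 1 array in turn gave 1860 to 3801 calls over all genes, 1 to 2 members brighter in Cy5, 2 to 6 brighter in Cy3, 2 to 6 pathway genes, and 2 to 5 other probes. The lowest of these came without array 3, except that the members' counts were as low without array 1. Without array 2, Sema3d (-0.36, limma adjusted p = 0.0479) and Sema6a (-0.38, limma adjusted p = 0.0272) were called in addition, and Sema4d was not. Leaving out the population outliers, which like the settings for the other probes was chosen after seeing the data, changed no member's call. The planned comparison of lower bounds was not run, since no member reached 2-fold in its mean over the arrays. The cause of these changes was not tested. Only 1 probe of a member, the second of Sema3g, was not well above background in either channel, and the second probe of Sema4f was not in Cy5. Each log ratio is already a difference within a pair, so the main test is a paired one. All arrays form 1 group, so no further pairing could be fitted.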
